A study of Mus musculus with 8 samples.

Results

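The probes described here were marked as well above background in the hippocampus of every BTBR mouse and of no B6 mouse. A probe is called detected on an array when the scanner software gave its spot this mark, and the members are the probes marked on all 4 BTBR arrays and on 0 of 4 B6 arrays. Of 41174 probes on the array, 33 met this rule, and they carry 31 of 27373 gene names. Lack of the mark in B6 is not lack of signal, since by the software's weaker mark, a signal significantly above background, 30 of the 33 were marked on at least 1 B6 array and 5 on all 4. With the weaker mark in the rule, 8 probes met it, of which 3 (Gbp2b, C330024D21Rik and U07662) are members. The number also depended on single arrays, with 82 probes without BTBR replicate 3, 45 without B6 replicate 3 and 33 to 40 without any other array. The opposite pattern, 4 B6 arrays and 0 BTBR arrays, was met by 76 probes. The members were therefore selected on the difference between the strains, and their levels below are a description of that selection, with no test of it. The rule picks probes and not genes, since Masp2, Ift140, Glce and Mpzl2 were each detected on all 4 B6 arrays by another probe, as was the Ighg1 locus.

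BTBR T+ Itpr3tf/J is an inbred mouse strain used as a model of autism-like behavior, and C57BL/6J, called B6, served as its wild type control. Whole hippocampus was taken from 4 male mice of each strain at 5 months of age, without drug treatment, and each mouse was hybridized to its own array. The labels write C57BL/6J as the strain background of all 8 mice, whereas title and source name place 4 of them in the BTBR group. The array was designed on build mm9 of the mouse genome, which is the sequence of the B6 strain. The sequence of BTBR mice under the probes was not measured, and the part of sequence differences in the values below was not tested.

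Several members belong to families that are known from the immune system rather than from neurons. Immunoglobulin gamma constant regions are the stems of IgG antibodies made by plasma cells, Masp2 is the protease that starts the lectin pathway of complement, and guanylate binding proteins are GTPases made by cells that have sensed interferon. Others are known from cilia, from the extracellular matrix, or from testis, where Rec114 acts in meiotic recombination and the Catsper channel drives sperm motility.

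The probes are 60 bases long, and stretches of 30 bases or less are shown for the members that the results turn on, as the array files give them and with positions on mm9. The first set holds the named genes furthest above the B6 arrays. Tescl lies on chr7:25118115-25118174 on the minus strand, Rbm45 on chr2:76218588-76221536, Loxl2 on chr14:70092141-70092200 and Gbp2b on chr3:142281897-142281956, these last 3 on the plus strand. The interval of the Rbm45 probe is longer than 60 bases, so this probe joins separate stretches of the genome.
Tescl: gcagactcttgcagcagctacagggtacat
Rbm45: tccaaaaagaggcagagaacttactgagtc
Loxl2: tgaagtgccagaatcagatttctctaacaa
Gbp2b: tcaaaaacactttctccttctaagagtttt

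The next set holds the gamma constant regions, which are close copies of one another, so a probe of one may also bind another. The first Ighg1 probe (chr12:114567263-114567322) and the Ighg2b probe (chr12:114544665-114544724) share a run of 11 bases, written in capitals, and the second Ighg1 probe lies on chr12:114567402-114567461. All 3 are on the minus strand.
Ighg1, first probe: ttacttcgtctACAGCAAGCTCaatgtgca
Ighg1, second probe: agatggccaaggataaagtcagtctgacct
Ighg2b: ACAGCAAGCTCgatataaaaacaagcaagt

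The last set shows the members that share long runs with a probe of another name, again in capitals. AK089085 (chr4:132781752-132781811, plus strand) shares its bases 31 to 60 with the probe TC1586030 on chr17:36217089-36217148 on the minus strand. 2610036A22Rik (chr19:9681767-9681826, plus strand) shares 34 bases with a Gm13152 probe and 28 of them with NAP028872-1, both on chromosome 4.
AK089085: GCTCAAATCTTTGAGCTGAGGGTTGATTAG
TC1586030: GCTCAAATCTTTGAGCTGAGGGTTGATTAG
2610036A22Rik: ctTGAACACATGAATATTCAAGAGAAGTCT
Gm13152: caTGAACACATGAATATTCAAGAGAAGTCT
NAP028872-1: caTGAACACATGAATATTCAAGAGAAGTCT

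Between 56.8% and 71.9% of the probes were well above background on the B6 arrays (median 69.3%) and between 61.9% and 71.5% on the BTBR arrays (median 68.9%). The mark acted as a limit on the background-subtracted signal that differed between arrays. The dimmest marked probe read 107 on B6 replicate 1 and 36.9 to 64.1 on the other arrays, so a spot had to be brighter to be marked on B6 replicate 1. Without that array the rule found the same 33 probes. All 8 markers of neurons and all 8 of hippocampal pyramidal and granule neurons were detected on all 8 arrays. The summed intensity of markers of neighboring tissue was 12911 to 16457 in B6 and 13643 to 104958 in BTBR for thalamus, 7345 to 37161 and 6401 to 119362 for striatum, and 15659 to 39077 and 18068 to 76790 for choroid plexus. It was 16993 to 50265 in B6 and 26507 to 52858 in BTBR for meninges, and 3384 to 19093 and 7125 to 26589 for pituitary. Of the markers on these 5 lists 0 were called. Among those of glia and vessels, the microglial receptor Cx3cr1 was higher in BTBR at 13.47 ± 0.14 against 12.07 ± 0.10 (SD, n = 4, limma adjusted p = 1.1e-05), and C1qb and Itgam of the same 8 were lower (0.00060 and 0.013). The astrocyte filament Gfap was lower, as 1 of 7, at 12.53 ± 0.31 against 13.83 ± 0.24 (0.0014), and the endothelial transporter Slco1c1 higher, as 1 of 7 (0.0098). The summed intensity of the microglial markers was 41869 to 45196 in B6 and 41348 to 51258 in BTBR. The part of all these markers in the member values was not tested. No member stands on any of the 12 lists of cell type markers.

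The members were dim. Levels are given as normalized intensity on the log2 scale, made from mean spot intensity minus local background with an offset of 50. The BTBR means of the 33 probes ran from 8.05 to 9.70 with a median of 8.37, and 29 lay below 9, whereas the median BTBR mean over all 27982 probes tested was 10.07. The B6 means ran from 7.60 to 7.93. In 31 of the 33 probes every BTBR array read above every B6 array, against 6.91% of all probes tested, a count that follows from how the probes were chosen. The exceptions were Capn11 and Fam188b2. On the scanner's own background-subtracted signal, 0 of the 33 overlapped. The median difference, BTBR minus B6, was 0.59 over the members and 0.011 over all probes tested.

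**Figure D1:**
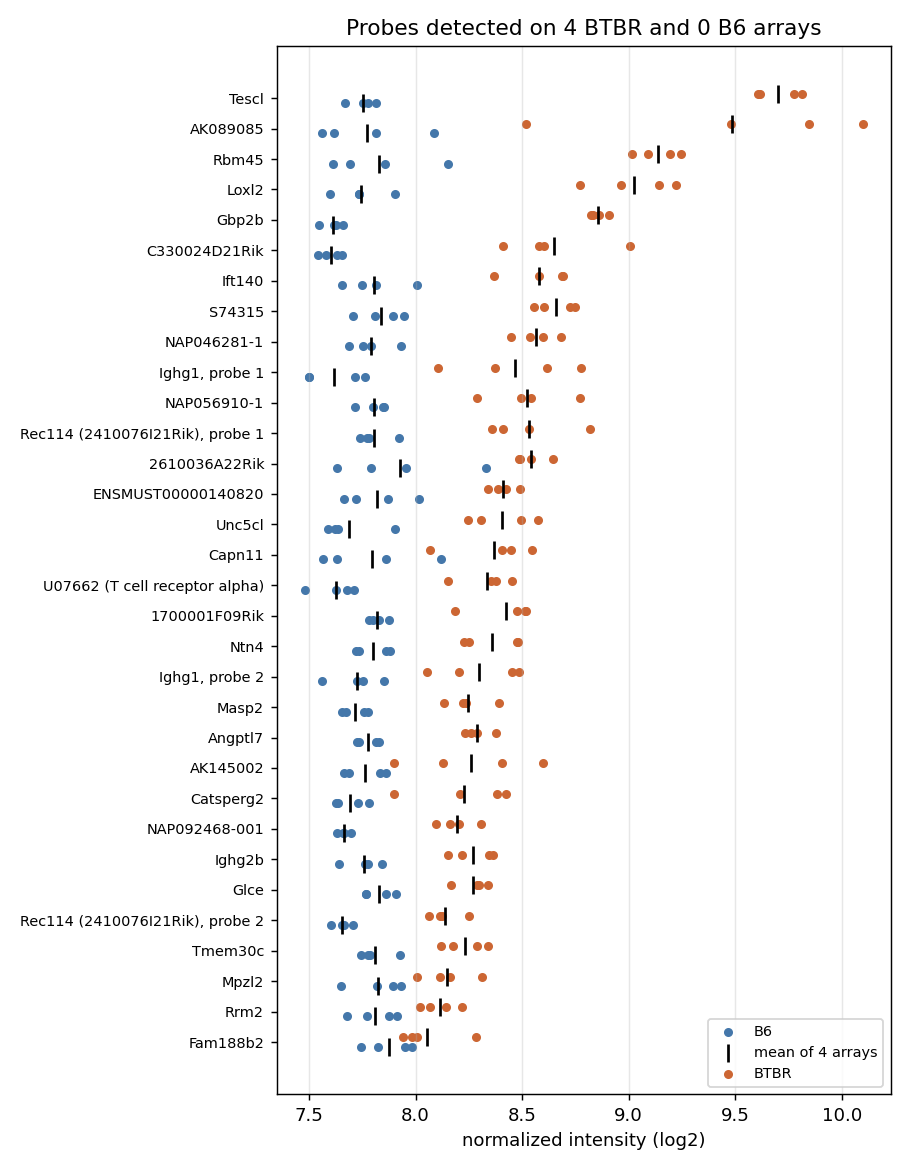
Normalized intensity (log2, horizontal axis) of 32 of the 33 probes, 1 row each in order of their lower bound, on 4 B6 arrays (blue) and 4 BTBR arrays (orange), with a bar at each strain's mean. Tescl, AK089085, Rbm45 and Loxl2 have BTBR means of 9.03 to 9.70, and the other rows have BTBR means under 9.

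Because a member was not well above background in B6, its B6 level is treated as an upper limit, although 30 of the 33 had a signal significantly above background on at least 1 B6 array, and the difference is given as a lower bound. The bound takes the mean of the 4 BTBR arrays over the mean of 4 B6 values, where each B6 value is the higher of the probe's own level and that of the dimmest well above background probe on the array. On normalized intensity that dimmest probe read 8.15, 6.78, 7.76 and 6.80 on B6 replicates 1 to 4. On replicates 2 and 4 this lay below the own level of every member, so the own level was used there. For 2610036A22Rik the own level was used on all 4, and its bound equals the plain difference of 0.61. On normalized intensity the bound had a median of 1.44-fold, with 5 members at 2-fold or more and 20 under 1.5-fold. On the software's processed signal, which subtracts a larger background and adds no offset, the median was 2.92-fold, with 27 members at 2-fold or more and 10 at 4-fold or more. In the deposited matrix the median was 1.24-fold and the highest 2.47-fold, with 2 members at 2-fold or more. The order of the leading 5 was the same on normalized intensity and processed signal.

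**Figure D2:**
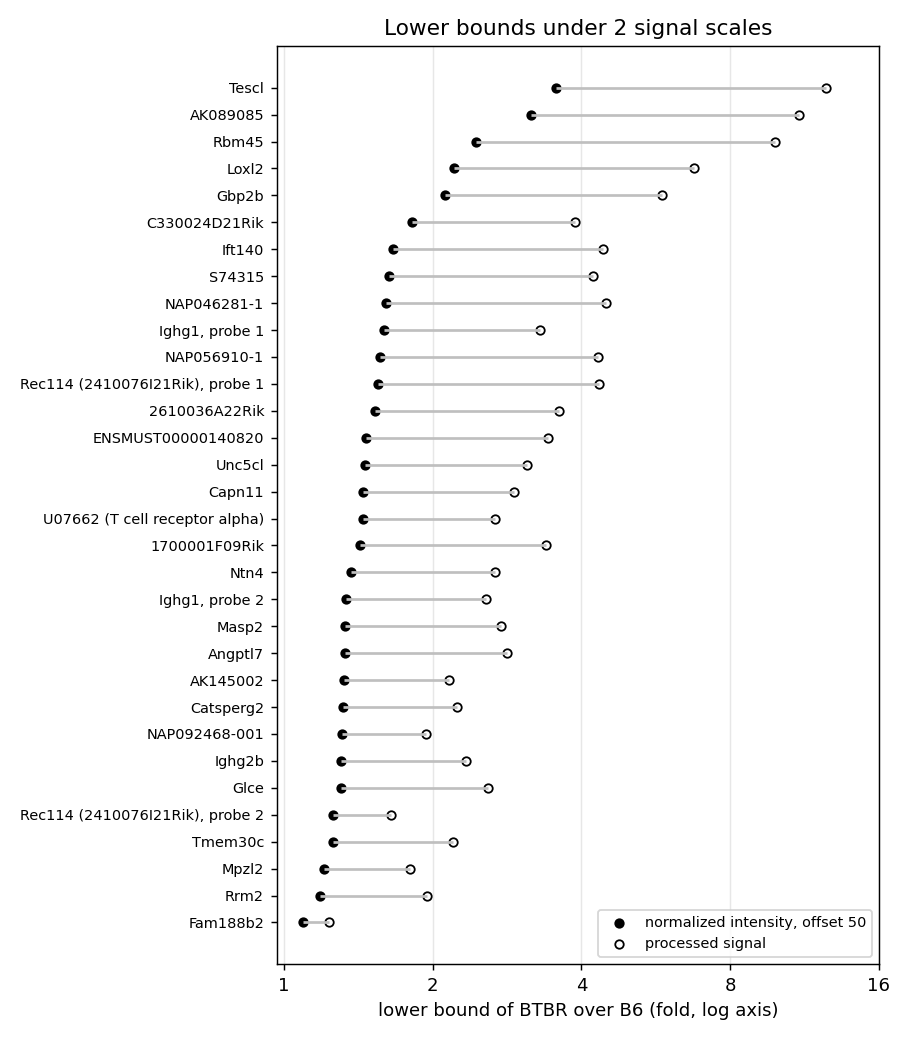
Lower bound of BTBR over B6 (fold, log axis) for 32 of the 33 probes, from normalized intensity (filled) and from processed signal (open), joined by a line. The processed signal gives the higher bound in every row, 12.5-fold against 3.55-fold for Tescl and 1.24-fold against 1.09-fold for Fam188b2.

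Tescl, a gene named for its likeness to the calcium-binding protein tescalcin, stood furthest above B6. The BTBR arrays read 9.81, 9.61, 9.77 and 9.61 for replicates 1 to 4, and the B6 arrays 7.67, 7.78, 7.75 and 7.81. The strains were separated by 1.79 on the log2 scale between the nearest arrays. Its level was at least 3.55-fold higher in BTBR, or at least 12.5-fold on processed signal, where the spots read 453 to 735 in BTBR and 15.9 to 26.4 in B6. This first rank depended on BTBR replicate 3. Without that array the bound was 1.80 on the log2 scale for Tescl and 1.99 for AK089085.

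Rbm45, an RNA-binding protein of developing neurons, read 9.02, 9.09, 9.19 and 9.25 in BTBR against 8.15, 7.86, 7.69 and 7.61 in B6. All 4 BTBR arrays were close together, and B6 replicate 1 was the highest of its strain. The bound was at least 2.45-fold, and at least 9.88-fold on processed signal. Loxl2, a lysyl oxidase-like enzyme that crosslinks collagen and elastin, read 9.14, 9.22, 8.77 and 8.96 in BTBR and 7.60, 7.73, 7.90 and 7.73 in B6. BTBR replicates 1 and 2 were the higher ones, and the bound was at least 2.21-fold, or at least 6.75-fold on processed signal.

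Gbp2b, the guanylate binding protein of the list, had the smallest spread of the leading members. Its level was 8.82, 8.86, 8.83 and 8.91 in BTBR and 7.66, 7.62, 7.62 and 7.55 in B6. The SD was 0.04 in BTBR and 0.05 in B6 (n = 4 each), and the level was at least 2.12-fold higher in BTBR, or at least 5.83-fold on processed signal. The array holds 10 other probes of guanylate binding proteins. Of these, 9 were tested with limma and 0 were called at an adjusted p under 0.05, with adjusted p from 0.16 to 0.89 and 1 probe at an unadjusted p under 0.05. Gbp2, a related gene on the same chromosome, read 10.40 ± 0.13 in B6 and 10.52 ± 0.11 in BTBR (SD, n = 4, limma adjusted p = 0.54).

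AK089085 is a thymus cDNA that the array annotates as histocompatibility 2, blastocyst, an MHC class I-like gene. It read 9.85, 10.10, 8.52 and 9.48 in BTBR and 8.08, 7.82, 7.62 and 7.56 in B6. BTBR replicate 3 was the lowest of its strain, 0.44 above the highest B6 array. The bound was at least 3.17-fold, or at least 11.0-fold on processed signal. The probe TC1586030, which carries the same 30 bases, was detected on 4 BTBR and 2 B6 arrays and read 11.22, 11.57, 9.02 and 10.81 in BTBR against 8.19, 8.45, 8.32 and 7.80 in B6 (limma adjusted p = 0.014). Here too BTBR replicate 3 was the lowest BTBR array. H2-Bl, the gene of that name on chromosome 17, was detected on all 8 arrays at 10.01, 10.24, 8.87 and 9.56 in BTBR and 8.21 to 8.51 in B6 (limma adjusted p = 0.016). Of 8 fits that each left out 1 array, the call held in 7 for TC1586030, with an adjusted p of 0.050 without B6 replicate 4. For H2-Bl it held in 6, with 0.055 without B6 replicate 1 and 0.050 without B6 replicate 4. Which of these transcripts the AK089085 probe had bound was not tested.

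The immunoglobulin members were the 2 probes of Ighg1 and the probe of Ighg2b, whose names in the files are Ensembl transcripts. The first Ighg1 probe read 8.62, 8.10, 8.37 and 8.77 in BTBR and 7.50, 7.50, 7.72 and 7.76 in B6. The second read 8.45, 8.05, 8.20 and 8.48 in BTBR and 7.56, 7.76, 7.73 and 7.85 in B6. Both probes ranked the 4 BTBR mice in the same order, with replicate 4 highest and replicate 2 lowest. Ighg2b read 8.34, 8.15, 8.22 and 8.37 in BTBR against 7.64, 7.84, 7.77 and 7.78 in B6, and replicates 4 and 2 were again its highest and lowest BTBR arrays. The bounds were at least 1.60-fold and 1.34-fold for Ighg1 and at least 1.31-fold for Ighg2b, or 3.29-fold, 2.57-fold and 2.34-fold on processed signal.

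Other heavy chain probes on chromosome 12, which the rule did not take, gave the following values. X87228 is a heavy chain mRNA whose probe, at chr12:114567137-114567196 on the minus strand, lies directly beside the first Ighg1 probe and by its position reads the same locus. It was detected on all 8 arrays at 8.56 ± 0.21 in B6 and 9.18 ± 0.27 in BTBR (SD, n = 4, limma adjusted p = 0.037). This call was lost in 6 of 8 fits without 1 array, with adjusted p up to 0.11. A probe at the Ighg1 locus was thus detected in B6, and the 2 member probes fell below the limit there. The constant region of IgA, under the array name Igh-VJ558, has 3 probes that were detected on all 8 arrays and rose in BTBR. The brightest read 11.86, 11.91, 11.32 and 11.67 in BTBR and 9.36, 9.58, 10.21 and 8.46 in B6, a difference of 2.29 ± 0.32 on the log2 scale (SE, limma adjusted p = 0.0022). The other 2 differed by 1.80 (adjusted p = 0.00060) and 1.78 (0.0011). All 3 were called in each of 8 fits without 1 array.

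The probes tested for Ighg2c, another IgG subclass, and for the IgM constant region did not pass the test with all 8 arrays. The probe of the IgE constant region was detected on 0 arrays and was not tested. The 2 probes of Ighg2c differed by 0.70 and 0.44 (limma adjusted p = 0.41 and 0.13). Without BTBR replicate 3 these differences were 1.07 (adjusted p = 0.066) and 0.57, of which the second passed (adjusted p = 0.015), the only such pass among the 8 fits that left out 1 array. The 2 probes of the IgM constant region differed by 0.49 and 0.31 (0.71 and 0.73). A further IgM heavy chain probe, named Ighm, read 12.66 ± 0.33 in B6 and 12.40 ± 0.34 in BTBR (SD, n = 4, difference -0.27, adjusted p = 0.56). The strains overlapped in all 5 probes. In all, the array holds 96 probes described as immunoglobulin heavy, kappa, lambda or joining chain, of which 48 were detected on 0 arrays and 12 on all 8. Beside the 3 members, 26 of them were tested, and 4 were higher in BTBR and 0 lower. These 4 were the IgA probes and X87228 at the Ighg1 locus, so IgA was the only locus called outside those of the members. The background over all probes tested was 3.31% higher and 4.3% lower. Among the markers of blood and B cells, the B cell antigen Ms4a1 was detected on 0 BTBR arrays and 1 B6 array, Cd79a on 2 of 4 arrays in each strain, and Igj, the chain that joins IgA and IgM, on all 8 by its brighter probe. The dimmer Igj probe was detected on 3 BTBR arrays and 1 B6 array (limma adjusted p = 0.47). Of the 7 markers on the array, 5 were tested and 0 were called. Their summed intensity was 39373 to 77138 in B6 and 52386 to 199626 in BTBR, mostly from the hemoglobin gene Hba-a1. The part of residual blood in the immunoglobulin values was not tested, and in whole tissue more cells of a type and more RNA per cell cannot be told apart.

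**Figure D3:**
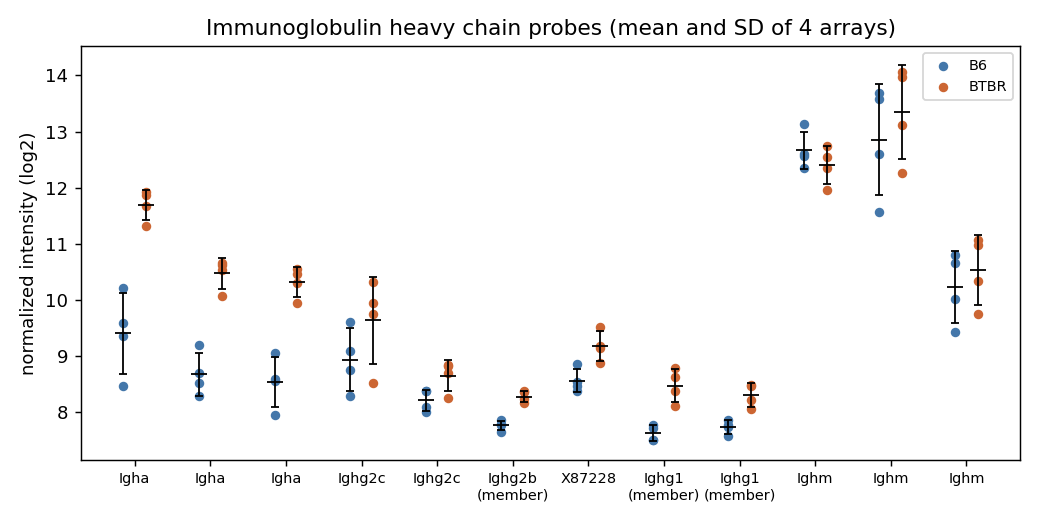
Normalized intensity (log2, vertical axis) of immunoglobulin heavy chain probes in order of their position on chromosome 12, on 4 B6 arrays (blue) and 4 BTBR arrays (orange), with mean and SD. The 3 members lie between 7.50 and 8.77, and the 3 IgA probes reach 11.91 in BTBR.

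U07662, a T cell receptor alpha chain mRNA, was another member from the antigen receptors. It read 8.45, 8.15, 8.38 and 8.36 in BTBR and 7.71, 7.68, 7.48 and 7.63 in B6, and the strains did not overlap. The bound was at least 1.44-fold, or at least 2.67-fold on processed signal. The member probe lies at chr14:54843713-54843772. A probe of the T cell receptor alpha constant region at chr14:54841802-54842701 was detected on 0 arrays and was not tested. Of the 36 probes described as T cell receptor, 12 outside the rule were tested with limma and 0 were called, with adjusted p from 0.32 to 0.96 and 0 at an unadjusted p under 0.05. Cd3d, a chain of the T cell receptor complex that is not among those 36 and is named here after its values were seen, read 8.21 ± 0.08 in BTBR and 7.83 ± 0.17 in B6 (SD, n = 4) and was detected on 4 BTBR and 2 B6 arrays. The strains did not overlap (limma adjusted p = 0.039), but the difference passed in only 1 of the 8 fits that left out 1 array, with adjusted p up to 0.12.

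Masp2 was the member whose other probes gave the clearest values. Its member probe at chr4:147989121-147989180 read 8.22, 8.24, 8.14 and 8.39 in BTBR and 7.78, 7.76, 7.65 and 7.68 in B6, a bound of at least 1.33-fold, or at least 2.75-fold on processed signal. A second probe at chr4:147978429-147978488 was detected on all 8 arrays. It read 12.24, 12.36, 12.08 and 12.41 in BTBR and 10.22, 10.06, 10.02 and 10.26 in B6, a difference of 2.13 ± 0.09 (SE, limma adjusted p = 1.35e-06). The third, at chr4:147977799-147977858, read 10.02, 9.92, 9.71 and 10.16 in BTBR and 8.34, 8.39, 8.43 and 8.46 in B6, a difference of 1.55 ± 0.10 (adjusted p = 1.26e-05). So Masp2 was detected in B6 by these 2 probes, and the member probe alone fell below the limit there. The array lists the member probe under another transcript entry than these 2. Whether it reads a separate transcript of the gene was not tested. All 3 probes lie on the plus strand.
Masp2, member: taccctttacaagggcaatttagcaaatca
Masp2, second probe: tacatgcccacacgatgctgctctgtcagg
Masp2, other probe: tggatgaatgcagagtgtctctgggagact

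The other 8 genes with probes outside the rule gave no such call. In all, 14 further probes cover 9 of the member genes. Of these, 8 were bright enough to test, and 2 were higher in BTBR, both of Masp2, and 0 lower (background 3.31% and 4.3%), with 4 of the 8 at an unadjusted p under 0.05. Mpzl2, an adhesion protein of epithelia, read 10.21, 10.26, 9.9996 and 10.66 in BTBR and 9.22, 9.55, 10.11 and 9.00 in B6 on its second probe, with B6 replicate 3 inside the BTBR range (difference 0.81 ± 0.23 SE, limma adjusted p = 0.080). Without that array the difference was 1.03 and passed (adjusted p = 0.014).

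The second Loxl2 probe (chr14:70095254-70095313) was detected on 4 BTBR and 3 B6 arrays at 8.29 ± 0.08 in BTBR and 8.11 ± 0.10 in B6 (SD, n = 4, limma adjusted p = 0.22), with BTBR replicate 3 inside the B6 range. Its first bases were as follows.
Loxl2, second probe: caccaaaggcttcgggactcctgtgtgtag

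Ift140, a subunit of the intraflagellar transport complex that returns cargo from the tip of cilia, was detected in both strains by its brightest probe. That probe read 11.97 ± 0.06 in B6 and 11.94 ± 0.12 in BTBR (SD, n = 4, limma adjusted p = 0.91), whereas the member probe read 8.69, 8.37, 8.58 and 8.69 in BTBR and 8.01, 7.81, 7.75 and 7.66 in B6. Another Ift140 probe did not pass either (adjusted p = 0.70). Glce, the epimerase that converts glucuronic to iduronic acid in heparan sulfate, was likewise bright on another probe, at 11.88 ± 0.29 in B6 and 12.03 ± 0.36 in BTBR (adjusted p = 0.76). Its member probe read 8.30, 8.29, 8.16 and 8.34 in BTBR and 7.91, 7.86, 7.77 and 7.77 in B6. Both genes were thus detected in B6 by another probe. The array lists the member probes under other transcript entries than the bright probes, and whether they read a separate transcript of the gene was not tested.

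**Figure D4:**
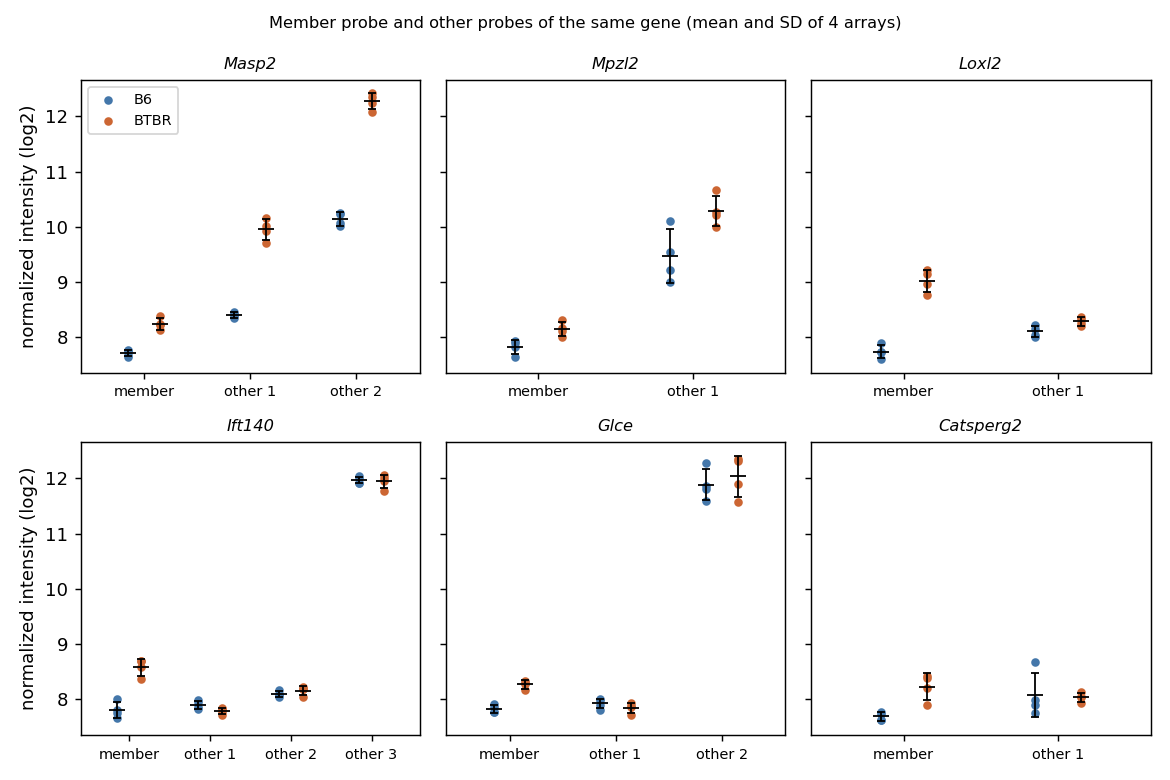
Normalized intensity (log2, vertical axis) of the member probe and the other probes of 6 genes on 4 B6 arrays (blue) and 4 BTBR arrays (orange), with mean and SD. The other Masp2 probes lie higher in BTBR than in B6, while the brightest probes of Ift140 and Glce have overlapping strains near 12 in both.

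Catsperg2, an auxiliary subunit of the sperm calcium channel, read 8.21, 7.90, 8.38 and 8.42 in BTBR and 7.63, 7.78, 7.73 and 7.63 in B6. Its second probe read 8.04 in BTBR and 8.08 in B6 on average (limma adjusted p = 0.93). Of 3 probes tested for the channel's genes outside the rule, Catsper2 was higher in BTBR at 10.72 against 9.98 (adjusted p = 0.0012) and Catsper3 lower at 7.99 against 8.32 (0.0063). Both probes of Rec114, listed under the older name 2410076I21Rik, were members. The first probe read 8.41, 8.53, 8.36 and 8.82 in BTBR and 7.74 to 7.92 in B6, and the second 8.12, 8.07, 8.13 and 8.25 against 7.60 to 7.71. Replicate 4 was the highest BTBR array on both. Their bounds were at least 1.55-fold and 1.26-fold, or 4.34-fold and 1.65-fold on processed signal.

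C330024D21Rik was the only member that RefSeq lists as a long noncoding RNA, among 20 members matched to RefSeq, of which 19 code for proteins. It read 8.41, 9.00, 8.60 and 8.58 in BTBR and 7.54 to 7.66 in B6, with BTBR replicate 2 the highest. The bound was at least 1.82-fold, or at least 3.88-fold on processed signal. A second probe of it was detected on 0 arrays. Transcripts that the array names by a clone or sequence entry, those of Ighg1, Ighg2b and U07662 included, made up 16 of the 33 probes (48.5%, against 24.2% of all probes on the array). Among them, S74315, an mRNA with gag and env sequences of retroviral origin, read 8.60, 8.73, 8.75 and 8.56 in BTBR and 7.71 to 7.94 in B6, a bound of at least 1.64-fold, or at least 4.22-fold on processed signal. NAP046281-1 and NAP056910-1 had bounds of at least 1.61-fold and 1.56-fold.

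2610036A22Rik, which shares 28 bases with NAP028872-1, read 8.49, 8.65, 8.54 and 8.49 in BTBR and 8.33, 7.95, 7.79 and 7.63 in B6. B6 replicate 1 came within 0.16 of the lowest BTBR array. NAP028872-1 was detected on 4 BTBR arrays and 1 B6 array, at 8.56 ± 0.18 in BTBR and 7.89 ± 0.15 in B6 (SD, n = 4, limma adjusted p = 0.0050). Gm13152, the longer match, was detected on 0 arrays.

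The remaining named members were close to the limit of detection. Unc5cl, a death domain protein related to netrin receptors, read 8.58, 8.31, 8.50 and 8.24 in BTBR and 7.59 to 7.90 in B6, and Ntn4, a netrin of basement membranes, 8.48, 8.48, 8.25 and 8.23 against 7.72 to 7.88. Angptl7, a secreted angiopoietin-like protein, read 8.23 to 8.38 in BTBR and 7.72 to 7.83 in B6. Tmem30c, a relative of the flippase subunits, had a bound of at least 1.26-fold. Capn11, a calpain known from testis, overlapped, with BTBR replicate 2 at 8.07 and B6 replicate 1 at 8.12. The smallest bounds were those of Mpzl2 (1.21-fold), Rrm2, the small subunit of ribonucleotide reductase (1.18-fold), and Fam188b2 (1.09-fold). In Fam188b2 the BTBR arrays read 8.01, 7.94, 8.29 and 7.98 and the B6 arrays 7.95, 7.98, 7.82 and 7.75, so the strains overlapped.

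Just outside the rule were 20 probes detected on 4 BTBR arrays and 1 B6 array, and 58 on 3 BTBR arrays and 0 B6 arrays. Cox7c, a subunit of cytochrome c oxidase, was missed through B6 replicate 4 alone. It read 9.82, 10.52, 10.11 and 10.13 in BTBR and 7.68, 7.78, 7.79 and 8.05 in B6, and the strains did not overlap. BC049715 read 9.49 to 9.76 in BTBR and 7.79 to 7.92 in B6, and Upk3a 8.29 to 9.18 and 7.59 to 8.09. Among the 58, Ssb, Tmem186 and AK042944 had the widest mean differences, and each rested on BTBR replicate 3, which read 11.63, 11.66 and 10.55 while the other BTBR arrays of these probes read 7.64 to 8.29.

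The difference was positive on both slides in all 33 members, as the rule for choosing them makes likely. Each strain had its replicates 1 and 2 on slide 1, and its replicates 3 and 4 on slide 2. The differences ran from 0.0079 to 2.02 on slide 1 (median 0.57) and from 0.35 to 1.91 on slide 2 (median 0.71). BTBR replicate 2 was the lowest BTBR array in 13 members, and B6 replicate 1 the highest B6 array in 14. On background-subtracted signal, 11 of the 33 exceeded on every BTBR array the limit of 107 that held on B6 replicate 1, and 22 did not. Those 11 were the leading 9 by bound together with the first Rec114 probe and 1700001F09Rik.

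On the chromosomes, chromosome 4 held 6 members (18.2%, against 5.81% of all probes), and chromosome 12 held 5 (15.2% against 3.76%), of which 3 are the immunoglobulin probes. Chromosomes 7 and 9 held 4 each (12.1%, against 7.33% and 5.71%), and chromosomes X and Y held 0 (against 3.59% and 0.045%). Members of different names within 1 Mb were Ighg1 and Ighg2b, 22.5 kb apart, and Masp2 and Angptl7, 119 kb apart. Within 100 kb of the members lay 150 tested probes under other gene names, X87228 at the Ighg1 locus included. Limma called 21 of them higher in BTBR and 11 lower, 21.3% in all, where the background over all probes tested was 3.31% higher and 4.3% lower. Near NAP046281-1 on chromosome 7, Trim12a fell by 2.79 in BTBR on one probe (limma adjusted p = 5.27e-08) and by 0.73 on another. Near the position listed for AK089085, Map3k6, Sytl1, Tmem222 and Wasf2 were higher. This position is also 1 of the 6 on chromosome 4, although the probe shares 30 bases with TC1586030 on chromosome 17. Which transcript it bound was not tested. Near Tescl, the zinc finger gene Zfp94 was higher by 0.54 and Zfp108 fell by 0.67 in BTBR. Neighboring genes of one chromosome segment are not independent of each other, and this count was chosen after the values were seen.

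By the symbol of the gene, 4 members fell into a named group, with Gbp2b among the interferon-induced genes, Masp2 among complement and Rbm45 among genes of DNA and RNA processing. Each of these groups held 1 member (3.03%), against 0.233%, 0.165% and 1.23% of all probes on the array. Without the members, 65 interferon-induced probes were tested with limma, and 2 were higher in BTBR and 4 lower. Of 47 complement probes, 3 were higher and 7 lower, the other 2 Masp2 probes among the higher ones. In DNA and RNA processing, 10 of 418 were higher and 24 lower. The background over all probes was 3.31% higher and 4.3% lower.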

How the data were processed

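Hippocampal RNA of 4 BTBR and 4 B6 mice, carrying the Cy3 label, was read on Agilent mouse arrays of a single color, 4 arrays on each of 2 slides. The authors deposited the scanner's intensity for each spot, with its background marks and its processed signal, and per the file headers the software was Feature Extraction 10.7.3.1. A matrix of normalized log2 values was also deposited, with an offset not given in the sources used here. Groups follow the titles.

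Replicate spots were combined by their median, and a median mark of 0.5 or more counted as detected. For the levels, the local background was taken off the mean intensity with a floor of 0.5, an offset of 50 was included, and the log2 values were brought to common quantiles. Left out of the test were 154 probes with outlier marks and every probe that was well above background on fewer than 75% of the arrays in both strains, which left 27982. Limma 3.58.1 in R 4.3.3 fitted strain alone, with Benjamini-Hochberg adjusted p under 0.05 as the call, in place of the rank product of the study, which permutes probes. The fit was tested on simulated data. Python 3.11.15, NumPy 2.4.6 and pandas 2.3.3 computed the rest. The labels do not give litters or cages, so p-values measure the spread between these mice. There were 0 saturated probes, and precision is limited by having 4 arrays a strain.

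Members and lists were chosen with earlier results of these data known. The names are those of the 20 members with the largest bound that have a symbol and the 3 largest of the others, the members with another probe on all 8 arrays, those of a shared group or within 1 Mb, and those nearest the threshold. Features with related descriptions, shared sequence or positions within 100 kb, and any member these rules do not cover, were named after their values were seen. For 1 member no values are reported here by name. Symbols and biotypes come from the RefSeq gene list. Alternatives were other signals, normalizations, filters, blocks, windows and leaving out each array.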

Additional observations from a re-analysis of the deposited data

Results flagged for a closer look

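Dixon's test within each strain singled out 4 of 106 groups of 4 arrays, over the members, the other probes of their genes and the 6 named probes just outside the rule, where chance gives about 1 in 20. Among the members, Unc5cl read 7.90 on B6 replicate 2 and 7.59 to 7.64 on the other B6 arrays. 1700001F09Rik, a RIKEN transcript, read 8.19 on BTBR replicate 2 and 8.47 to 8.52 on the other BTBR arrays. Outside the rule, BTBR replicate 3 read 11.63 for Ssb, the RNA-binding La autoantigen, and 11.66 for Tmem186, while the other BTBR arrays read 7.90 to 7.94 and 7.83 to 8.01. The difference between the slides in the effect of strain was called by limma in 0 of 27982 probes, with 2780 at an unadjusted p under 0.05.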

How the results depend on the processing

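The rule depends on its mark and on single arrays. With the mark for a signal significantly above background in place of well above background, 8 probes met it, of which 3 are members. Allowing 1 unmarked BTBR array gave 91 probes and allowing 1 marked B6 array gave 53. Leaving out each array in turn gave 33 to 82, the highest without BTBR replicate 3. The number of members at least 2-fold higher in BTBR was 27 on processed signal and 2 in the deposited matrix, against 5 as reported, and 5 in each of 8 runs without 1 array. The cause was not tested. Over 429 alternative bounds of single members, 348 moved by less than 1 SD of the BTBR arrays and 81 by more, 33 of these on processed signal. The probes called by limma numbered 2129 and 1533 to 2183 without 1 array. The replicate numbers did not pair the mice: same-numbered arrays had correlations of -0.14, 0.51, -0.10 and 0.39. With the replicate number as a block, 1650 probes were called, and among the other probes of the member genes the count was again 2. X87228 was not called under it (adjusted p = 0.084). Among those probes, differences that missed the threshold changed sign for Catsperg2 without B6 replicate 1 (-0.15 to 0.15 over the 8 runs) and for Ift140 without BTBR replicate 2 (-0.058 to 0.036). With 4 arrays a strain and members this dim, differences among the weakest are not resolved.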
